A study of Mus musculus with 96 samples.

Results

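Usp2, Ciart, Bhlhe40, Bhlhe41, Wee1 and Noct are 6 genes transcribed under the control of the circadian clock, out of 56748 genes in the count table. They were chosen by name as clock-driven outputs, with measured values of these data known: their levels in liver, muscle and cortex under both diets. The rule states no threshold, and all levels of mice 1-16 are treated here as used. Differences between diets and between tissues in mice 1-16 are therefore given for the 6 genes as a description, with no test. The rule reads levels in mice 25-40 as well, so the 6 genes are given there as a description too, with no test. Each of the 6 passed the filter on low counts in all 6 comparisons of diet.

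The study examined how daily intermittent fasting changed gene expression in mouse tissues, by bulk sequencing of polyadenylated RNA from 96 libraries. Mice fed ad libitum (AL) were compared with mice on intermittent fasting (IF), with 8 mice per diet in each of 2 sets. Liver, muscle and cortex libraries carry the same mouse numbers, which are read here as the same mice. Mice 1-16 were labelled male and mice 25-40 female. Set, sex and any difference in handling or hour of collection cannot be told apart. For male mice the study's methods describe the C57BL/6 strain and name no transgene. They give a diet begun at 6 weeks of age and kept for 4 months. The daily fast of 16 h began at hour 16 and ended at hour 8 of the day. Lights were on from hour 7 to hour 19, and tissues were collected between hour 7 and hour 12. The methods state that this timing placed IF mice at the end of their fast. The hour of each mouse is not given, so diet and hour of collection within that span cannot be told apart. For mice 25-40 the sources used here give no such times, nor strain or age. Library totals ran from 26097314 to 49838004 counts, with a median of 36132954 over the 95 libraries used.

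The circadian clock of mammalian cells is a feedback loop of transcription. The proteins CLOCK or NPAS2 pair with BMAL1, the product of Arntl, bind E-box sequences and switch on the Per and Cry genes, whose proteins later repress that pair, while nuclear receptors such as NR1D1 set the level of Arntl. The same factors drive output genes with a daily rhythm, and feeding time is a strong signal to the clock of the liver.

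The 6 genes act at different points of this network. Ciart encodes a repressor of the CLOCK and BMAL1 pair, and Bhlhe40 and Bhlhe41 encode repressors of the basic helix-loop-helix class that bind E-boxes. Usp2 encodes a protease that removes ubiquitin from proteins, Wee1 a kinase that holds cells before mitosis by phosphorylating CDK1, and Noct encodes nocturnin, a rhythmic phosphatase related to the deadenylases. In mouse build mm39, Usp2 (ENSMUSG00000032010) lies at chr9:43978318-44006924 on the plus strand and Ciart (ENSMUSG00000038550) at chr3:95785815-95789563 on the minus strand. Bhlhe40 (ENSMUSG00000030103) lies at chr6:108637590-108643886 on the plus strand and Bhlhe41 (ENSMUSG00000030256) at chr6:145803969-145811284 on the minus strand. Wee1 (ENSMUSG00000031016) lies at chr7:109721253-109742493 and Noct (ENSMUSG00000023087) at chr3:51131868-51159065, both on the plus strand. Each is protein coding, and each overlaps at least 1 other annotated gene. For Ciart the overlapping gene, C920021L13Rik on the opposite strand, reached 6.86 CPM and had a median of 2.80 CPM in AL liver of mice 1-16, above that of Ciart itself.

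The labels were checked against marker genes. Hepatocyte markers (Alb, Apoa1, Tat, Cyp2e1 and Serpina1a) summed to at least 42195 CPM (counts scaled to an equal library total) in every liver library, muscle markers (Acta1, Ckm, Mylpf, Tnnt3 and Myh4) to at least 110345 CPM in every muscle library, and neuron markers (Snap25, Syt1, Slc17a7, Gad1 and Rbfox3) to at least 4923 CPM in every cortex library. In 47 libraries labelled male, Xist lay between 0 and 0.612 CPM and 4 Y-linked genes summed to between 67.9 and 177 CPM. In 48 labelled female, Xist lay between 36.8 and 1627 CPM and the Y-linked genes reached at most 0.0746 CPM. The remaining library, AL cortex of mouse 1, went against its label: it is labelled male, and Xist was at 213 CPM. It was left out, so AL cortex of mice 1-16 held 7 libraries, and values with it are given beside the cortex results.

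In liver of mice 1-16 all 6 genes had higher levels under IF than under AL. The gap was widest for Usp2, Ciart and Wee1, followed by Bhlhe41, Bhlhe40 and Noct. Of all genes tested in this comparison, 7234 of 16204 (44.6%) passed an adjusted p of 0.05, 3815 upward and 3419 downward, and the rule for the 6 genes used this contrast.

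Usp2, the ubiquitin protease, ran from 1.62 to 4.60 CPM with a median of 2.60 in AL liver, and from 69.2 to 110.1 CPM with a median of 85.6 in IF liver. Every IF mouse lay far above every AL mouse. The log2 fold change was 4.96 ± 0.18 (SE, n = 8 mice per diet). Ciart, the repressor of CLOCK and BMAL1, ran from 0.0766 to 3.19 CPM in AL liver (median 1.41) and from 12.4 to 42.7 CPM in IF liver (median 22.7), a log2 fold change of 3.92 ± 0.48. The diets did not overlap, and AL mice differed widely among themselves, down to a mouse with 2 counts.

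The cell cycle kinase gene Wee1 ran from 0.335 to 2.19 CPM in AL liver (median 1.40) and from 8.26 to 11.3 CPM in IF liver (median 9.62), with a log2 fold change of 2.82 ± 0.24. Its IF mice formed a narrow band, separate from the AL mice. Bhlhe41 had the lowest levels of the 6 genes per length in AL liver, from 0.420 to 1.76 CPM (median 0.978), and ran from 1.81 to 4.51 CPM (median 2.98) in IF liver, a log2 fold change of 1.54 ± 0.28. The highest AL mouse and the lowest IF mouse nearly met. Its relative Bhlhe40 ran from 13.6 to 53.7 CPM in AL liver (median 17.7) and from 50.2 to 79.2 CPM in IF liver (median 66.3), with a log2 fold change of 1.51 ± 0.23. The diets overlapped only through AL mouse 2, at 53.7 CPM, while the other 7 AL mice stayed at or under 24.4 CPM. Noct ran from 20.5 to 40.9 CPM in AL liver (median 25.96) and from 34.5 to 105 CPM in IF liver (median 43.8), a log2 fold change of 0.93 ± 0.23. The diets overlapped for this gene, and some IF mice stood well above the rest.

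Markers of other cells moved with diet in these livers. The 5 erythrocyte markers (Hba-a1, Hba-a2, Hbb-bs, Hbb-bt and Alas2) summed to 362 to 956 CPM (median 569) in AL and 667 to 6879 CPM (median 2070) in IF, with Hba-a1 the most abundant, 4 of 5 with a higher median in IF, and none with a median of 0. The 5 endothelial markers (Pecam1, Cdh5, Tie1, Kdr and Tek) summed to 59.9 to 80.6 CPM (median 62.2) in AL and 79.3 to 155 CPM (median 93.9) in IF, all 5 with a higher median in IF and none at 0. The most abundant of them was Tie1 in AL and Kdr in IF. Their part in the liver results was not tested. In bulk samples a change in the cells present and a change of RNA per cell cannot be told apart.

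**Figure D1:**
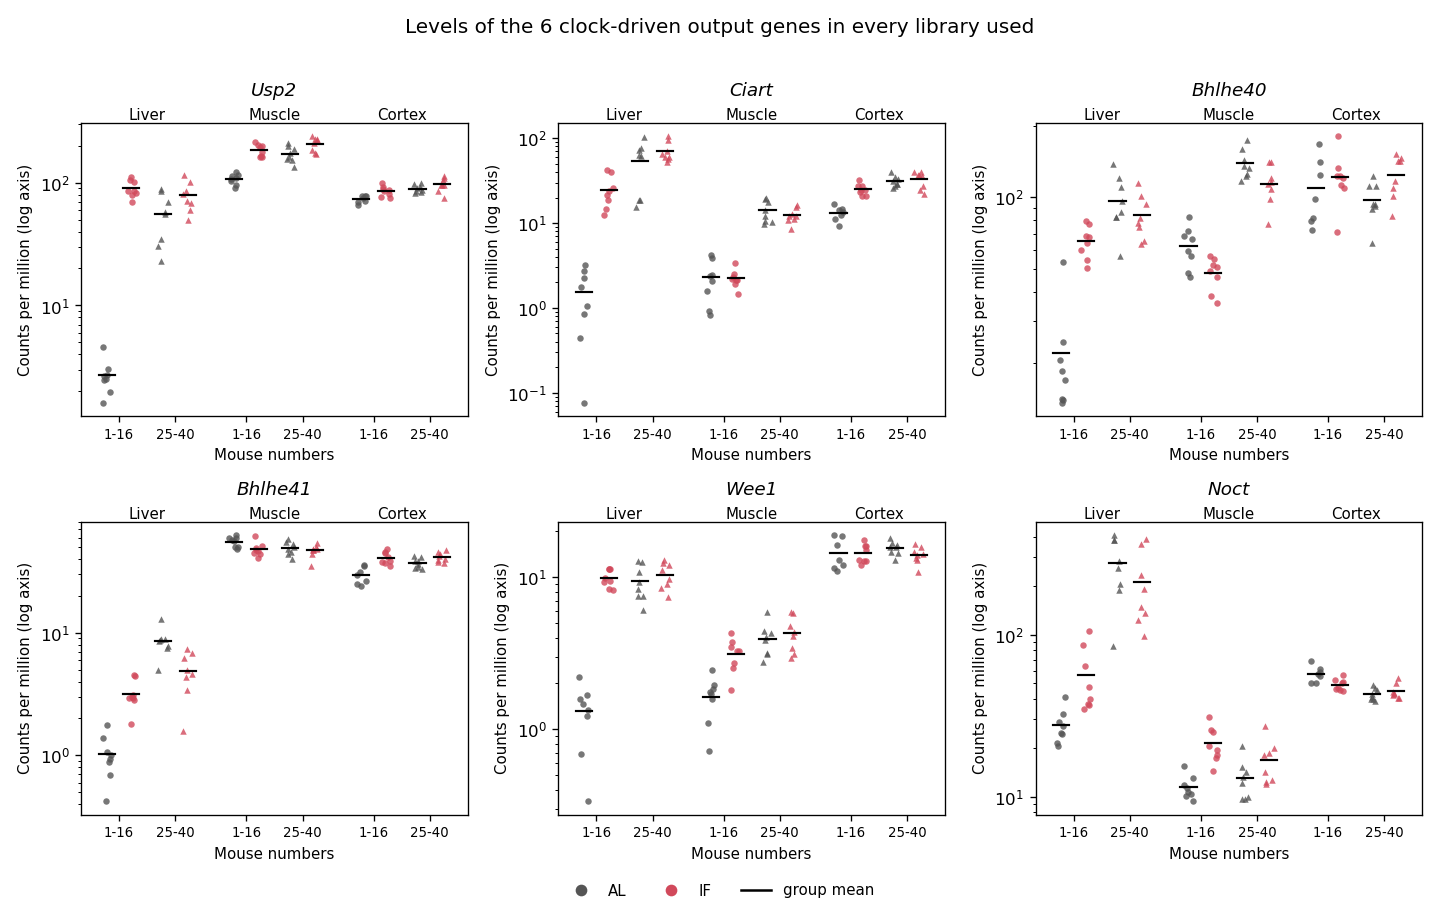
CPM on a log axis of the 6 genes in each library used, by tissue and mouse set; grey points are AL mice, red points IF mice, and bars are group means. The widest gap between diets is in liver of mice 1-16, where Usp2 lies between 1.62 and 4.60 CPM in AL and between 69.2 and 110.1 CPM in IF.

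The core clock genes around the 6 also differed between diets in liver of mice 1-16, in edgeR's quasi-likelihood test with Benjamini-Hochberg adjustment over all genes. All gene lists here and below were chosen with earlier results of these data known. Their counts and p-values are therefore a description and no independent support for the 6 genes. All 3 activators fell and all 5 repressors rose, with list medians of -1.91 and 1.34 in log2 fold change beside 0.06 over all genes tested. Arntl, which encodes BMAL1, averaged 20.1 CPM in AL and 5.69 CPM in IF (log2 fold change -1.91 ± 0.16, adjusted p = 1.6e-09, lower in 8 of 8 IF mice than the AL median). Per1 averaged 5.59 CPM in AL and 139 CPM in IF (log2 fold change 4.53 ± 0.29, adjusted p = 1.8e-09, higher in 8 of 8). Of the nuclear receptor genes, Nr1d2 rose and Nr1d1 fell. Of the 4 genes for PAR bZIP factors and Nfil3, Dbp, Tef and Hlf rose, and Nfil3 had a log2 fold change of -0.20. Among 10 other clock outputs 7 rose and 3 fell. Por, the electron donor of the cytochromes P450, had the largest fold change of that list (log2 2.94), and Tspan4 was next (log2 2.40).

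Genes that work with the 6 proteins moved in both directions in the same livers, where 44.6% of all genes passed. In the order given below, 5 of 8, 5 of 10, 7 of 8, 6 of 8 and 2 of 9 genes of these lists passed. Of 8 tested genes for G2/M partners of WEE1, 4 rose and Chek1 fell by 1.18 on the log2 scale. Cdc25a, a phosphatase that opposes WEE1, rose by 1.02. The EEP and deadenylase genes related to Noct had 5 of 10 lower and none higher. The largest fall was that of Pde12 at -0.71, with Cnot8 next at -0.63. Of 8 partners and relatives of USP2, 3 rose and 4 fell, Fasn by 2.18 on the log2 scale, while Ccnd1 rose by 1.54. The clock protein kinases and ubiquitin ligases had 2 genes up and 4 down of 8, with Fbxl21 at -1.24 and Btrc at -1.18. Of 9 tested HES, HEY, ID and USF genes, which share E-box or dimer partners with the BHLHE proteins, Id1 rose by 1.44 and Id2 fell by 0.81. Medians of these 5 lists were 0.60, -0.31, -0.25, -0.18 and 0.16 in the order named.

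In muscle of mice 1-16 the 6 genes moved apart. Usp2, Wee1 and Noct had higher medians under IF, Bhlhe40 and Bhlhe41 lower ones, and Ciart had close medians. Over all genes 3463 of 15025 (23%) passed the test, 1726 upward and 1737 downward.

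Usp2 ran from 89.7 to 123 CPM in AL muscle (median 109) and from 160.4 to 213 CPM in IF muscle (median 187), a log2 fold change of 0.72 ± 0.08. It was the only one of the 6 whose diets did not overlap in this tissue. Wee1 ran from 0.720 to 2.43 CPM in AL muscle (median 1.74) and from 1.82 to 4.31 CPM in IF muscle (median 3.26), a log2 fold change of 0.86 ± 0.20. Noct ran from 9.35 to 15.4 CPM in AL muscle (median 10.9) and from 14.3 to 31.05 CPM in IF muscle (median 19.9), a log2 fold change of 0.83 ± 0.14. For both genes every IF mouse lay above the AL median, with some overlap at the edges.

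Among the repressors, Bhlhe40 ran from 46.1 to 82.6 CPM in AL muscle (median 63.1) and from 35.9 to 56.5 CPM in IF muscle (median 49.9), a log2 fold change of -0.45 ± 0.11. Bhlhe41 ran from 48.5 to 62.8 CPM in AL muscle (median 56.7) and from 40.6 to 61.5 CPM in IF muscle (median 47.3), a log2 fold change of -0.27 ± 0.08. In both, most IF mice lay below the AL median, and the ranges overlapped. Ciart stayed low under both diets, from 0.822 to 4.18 CPM in AL muscle (median 2.24) and from 1.48 to 3.38 CPM in IF muscle (median 2.17), a log2 fold change of -0.09 ± 0.27, and the IF range lay inside the AL range.

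The core clock genes, in lists chosen with earlier results known, moved in muscle as well. All 3 activators fell, and of the 5 repressors Per1, Per2, Per3 and Cry2 rose while Cry1 fell, with list medians of -1.003 and 1.05 in log2 fold change beside 0.01 over all genes. The nuclear receptor gene Nr1d1 fell, from a mean of 207 CPM to 39.3 CPM (log2 fold change -2.47 ± 0.12, adjusted p = 4.5e-10, lower in 8 of 8 IF mice than the AL median). Tef and Hlf rose, and Dbp and Nfil3 had log2 fold changes of 0.20 and 0.40. The other outputs had 4 of 9 up and Leo1 down, led by Gys2 (log2 3.07, from a mean of 0.131 CPM) and Tsc22d3 (log2 1.28). No G2/M partner of 4 tested passed the test, with 0 of 4 at an unadjusted p under 0.05. Of the deadenylase genes 2 of 10 rose (Pan2 by 0.55 and Pan3 by 0.49), near the 23% of all genes that passed. Of 8 USP2 partners, Fasn rose by 3.74, Mdm4 rose and Usp21 fell by 0.35. Of 10 HES, HEY, ID and USF genes, Hey2 rose by 1.21, and Heyl and Usf2 fell. Leo1, Mdm4 and Usf2 are named here after their values were seen. The 5 adipocyte markers (Adipoq, Plin1, Cidec, Lep and Retn) summed to 11.5 to 142 CPM (median 40.3) in AL muscle and 45.5 to 717 CPM (median 221) in IF muscle. Of these, 4 of 5 had a higher median in IF, none had a median of 0, and Cidec was the most abundant. The hepatocyte marker sum in muscle was 1.57 to 11.9 CPM in AL and 35.1 to 210.02 CPM in IF, with 3 of 5 genes at a higher median in IF and Tat at a median of 0. Nearly all of it was Cyp2e1, at a mean of 95.4 CPM of 96.7 CPM in IF. The part of these markers in the muscle results was not tested.

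In cortex of mice 1-16 Ciart differed most between diets, followed by Bhlhe41 and Usp2. Bhlhe40 and Wee1 differed by less than their spread, and Noct was lower in IF. Over all genes 1332 of 18462 (7.21%) passed the test, 699 upward and 633 downward; with the AL library of mouse 1 included, 294 passed.

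Ciart ran from 9.15 to 17.0 CPM in AL cortex (median 13.6, n = 7) and from 21.0 to 32.1 CPM in IF cortex (median 24.4, n = 8), a log2 fold change of 0.95 ± 0.12, or 0.63 with the library of mouse 1. That library held 37.6 CPM of Ciart, above every other AL library of the set and above every IF library. Bhlhe41 ran from 24.3 to 35.7 CPM in AL cortex (median 29.5) and from 35.2 to 48.5 CPM in IF cortex (median 39.9), a log2 fold change of 0.49 ± 0.09, or 0.42 with that library. Usp2 ran from 66.1 to 77.5 CPM in AL cortex (median 75.2) and from 75.0 to 99.3 CPM in IF cortex (median 85.9), a log2 fold change of 0.24 ± 0.06, or 0.14 with that library. The diets did not overlap for Ciart, and met narrowly for Bhlhe41. For Usp2 they overlapped further, with the AL median of 75.2 CPM above the lowest IF mouse at 75.0 CPM.

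Bhlhe40 ran from 73.0 to 167 CPM in AL cortex (median 98.1) and from 71.4 to 181 CPM in IF cortex (median 122), a log2 fold change of 0.17 ± 0.20, or 0.18 with that library. Its spread among mice was the widest of the 6 genes in this tissue. Wee1 ran from 10.97 to 18.8 CPM in AL cortex (median 13.02) and from 11.95 to 17.5 CPM in IF cortex (median 14.02), a log2 fold change of 0.01 ± 0.12, or -0.01 with that library. Noct ran from 50.01 to 68.7 CPM in AL cortex (median 57.4) and from 44.8 to 56.0 CPM in IF cortex (median 48.7), a log2 fold change of -0.21 ± 0.07, or -0.16 with that library. For Noct every IF mouse lay below the AL median.

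Of the clock genes, in lists chosen with earlier results known, fewer passed in this cortex comparison than in liver of mice 1-16. The same held over all genes (7.21% in cortex and 44.6% in liver). The difference between tissues was not tested in mice 1-16. Arntl and Clock fell and Npas2 had a log2 fold change of -0.06. Per3 rose, and the other 4 repressors ranged from 0.10 to 0.57 without passing. Dbp and Tef rose, with Dbp at means of 64.6 and 109 CPM (log2 fold change 0.77 ± 0.12, adjusted p = 0.0019, higher in 8 of 8 IF mice than the AL median), while Nfil3 fell. Of 7 other outputs Tsc22d3 (log2 0.93) and Tspan4 rose and Leo1 fell. Among the deadenylase genes Parn rose by 0.44 and Cnot6 fell by 0.33. None of 8 kinases and ligases, 8 G2/M partners, 8 USP2 partners and 10 HES, HEY, ID and USF genes passed, and among them Hey2 alone had an unadjusted p under 0.05 (Hey2 here and Leo1 above are named after their values were seen). Another list of 4 brain cell markers, left out of the report, had a higher median in IF for all 4 genes. The sums of that list overlapped between diets, and its part in the cortex results was not tested. Markers of a deeper brain region also had a higher median in IF, with ranges that overlapped. The 4 striatum markers (Drd1, Adora2a, Ppp1r1b and Rgs9) summed to 129 to 1449 CPM (median 541) in AL and 431 to 1381 CPM (median 951) in IF, led by Ppp1r1b. All 4 genes had a higher median in IF, none was at 0, and their part in the cortex results was not tested.

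**Figure D2:**
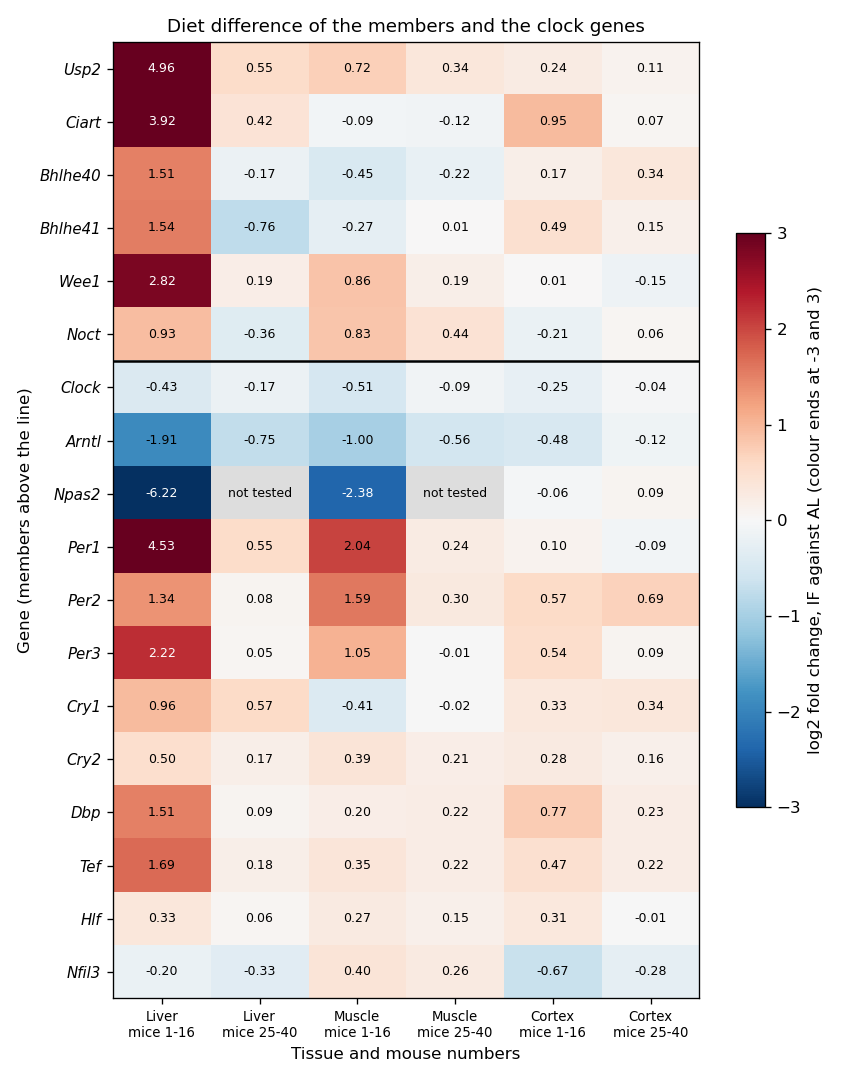
Log2 fold change of IF against AL (colour and printed value) of the 6 genes, above the line, and the genes of 3 clock lists, below it, in each tissue and mouse set; grey cells are genes not tested. The largest differences lie in the liver column of mice 1-16, such as 4.96 for Usp2 and 4.53 for Per1.

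In mice 25-40 the differences between diets are given for the 6 genes as a description, with no test. By size of log2 fold change, the difference was largest for Bhlhe41, lower in IF liver, and next for Usp2, higher in IF liver. Over all genes there passed 0 of 15938 (0%) in liver, 1 of 15308 (0.00653%) in muscle and 2 of 18403 (0.0109%) in cortex by edgeR's quasi-likelihood test with Benjamini-Hochberg adjustment. They were Rn18s-rs5, which rose in muscle, and mt-Atp6 and Gm11263, which fell in cortex, all named after their values were seen. At an unadjusted p under 0.05 the counts were 919, 1644 and 2069, DESeq2 gave 4, 82 and 61, and 1 edgeR fit over the 6 groups of these mice gave 283, 4 and 5. A p that misses the threshold does not show that levels were equal, and the difference in response between the sets was not tested.

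In liver of mice 25-40 Usp2 ran from 23.0 to 89.3 CPM in AL (median 56.6) and from 50.04 to 115 CPM in IF (median 76.1). The log2 fold change was 0.55 ± 0.26, and 7 of 8 IF mice lay above the AL median. Ciart ran from 15.6 to 103 CPM in AL (median 62.9) and from 51.8 to 105 CPM in IF (median 62.7), the log2 fold change being 0.42 ± 0.36 (4 of 8 IF mice above the AL median). The medians were nearly level. AL mice 25, 28 and 29 lay between 15.6 and 18.9 CPM of Ciart, below every other AL and IF mouse of the set, and the same 3 had the lowest Usp2, between 23.0 and 34.7 CPM.

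Bhlhe41 ran from 5.01 to 12.9 CPM in AL liver of mice 25-40 (median 8.65) and from 1.57 to 7.44 CPM in IF (median 4.79). All 8 IF mice lay below the AL median, with overlap through AL mouse 28. The log2 fold change was -0.76 ± 0.24. Bhlhe40 ran from 56.6 to 139 CPM in AL (median 91.7) and from 63.6 to 115 CPM in IF (median 79.8), a log2 fold change of -0.17 ± 0.16 (5 of 8 below). Wee1 ran from 6.11 to 12.8 CPM in AL (median 8.78) and from 7.39 to 12.9996 CPM in IF (median 10.3), a log2 fold change of 0.19 ± 0.16 (6 of 8 above). For both genes the ranges lay largely on top of each other. Noct ran from 85.2 to 410.2 CPM in AL (median 271) and from 97.9 to 389 CPM in IF (median 169.6), a log2 fold change of -0.36 ± 0.32 (6 of 8 below). Erythrocyte markers summed to medians of 522 CPM in AL and 512 CPM in IF in these livers, and endothelial markers to 61.2 and 55.2 CPM.

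In muscle of mice 25-40 Usp2 ran from 133 to 209 CPM in AL (median 167) and from 171 to 238 CPM in IF (median 217), a log2 fold change of 0.34 ± 0.10. All 8 IF mice lay above the AL median, and the ranges overlapped. Noct ran from 9.62 to 20.4 CPM in AL (median 12.7) and from 11.9 to 27.1 CPM in IF (median 16.1), a log2 fold change of 0.44 ± 0.19 (5 of 8 above). The other 4 genes had log2 fold changes between -0.22, for Bhlhe40, and 0.19, for Wee1. In cortex Bhlhe40 ran from 64.4 to 123 CPM in AL (median 93.4) and from 83.15 to 152 CPM in IF (median 129.7), a log2 fold change of 0.34 ± 0.13 (7 of 8 above). Bhlhe41 ran from 33.5 to 42.4 CPM in AL cortex (median 37.3) and from 37.04 to 47.5 CPM in IF (median 41.2), a log2 fold change of 0.15 ± 0.06 (7 of 8 above). The other 4 genes had log2 fold changes between -0.15, for Wee1, and 0.11, for Usp2.

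None of the genes in the 10 lists passed between diets in mice 25-40 in any tissue by edgeR's test, nor in the differences in response between tissues. At an unadjusted p under 0.05 there were 8 of 68 tested in liver, 8 of 66 in muscle and 12 of 68 in cortex, beside 919 of 15938, 1644 of 15308 and 2069 of 18403 over all genes. Arntl had log2 fold changes of -0.75 in liver, -0.56 in muscle and -0.12 in cortex, and Per1 of 0.55, 0.24 and -0.09. Medians of the lists lay between -0.46, for the activators in liver, and 0.22, for the PAR bZIP genes and Nfil3 in muscle.

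Whether the response to IF differed between tissues was tested over all genes in mice 25-40 only, and the 6 genes are given as a description. The largest difference among the 6 was that of Bhlhe41. Its response was lower in liver than in cortex by a log2 difference of -0.91 ± 0.22 and lower in liver than in muscle by -0.78 ± 0.22. Noct followed, with -0.82 ± 0.32 between liver and muscle. Over all genes 13 of 21292 (0.0611%) passed between liver and muscle, 12 (0.0564%) between liver and cortex and 1 (0.0047%) between muscle and cortex, which was Rpl19-ps11, named after its value was seen. The library names repeat the mouse numbers across tissues, and with mouse number as a block the counts were 1, 0 and 1 by edgeR.

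The 2 sets were set side by side within each diet. The choice of the 6 genes used the levels of mice 1-16, which shapes these counts, so they are a description and AL counts are not weighed against IF counts. In AL liver all 6 genes were higher in mice 25-40 with no overlap between the sets; over all genes tested 851 of 15429 (5.52%) did not overlap. Ratios of mean CPM were 35.1 for Ciart, 20.6 for Usp2, 9.95 for Noct, 8.39 for Bhlhe41, 7.13 for Wee1 and 4.41 for Bhlhe40. In AL muscle Usp2 (ratio 1.60), Ciart (6.20), Bhlhe40 (2.23) and Wee1 (2.41) were higher in mice 25-40 without overlap, 4 of 6 genes beside 9.54% of all genes, and Bhlhe41 and Noct overlapped. In AL cortex Usp2 (ratio 1.22) and Ciart (2.37) were higher and Noct was lower (0.748), 3 of 6 genes beside 1.82% of all genes.

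In IF mice Ciart was the only one of the 6 without overlap in liver, at a mean of 24.9 CPM in mice 1-16 and 70.6 CPM in mice 25-40 (1 of 6, beside 11.5% of all genes). In IF muscle Ciart and Bhlhe40 were higher in mice 25-40 without overlap (2 of 6, beside 5.33%), and in IF cortex none was (0 of 6, beside 0.79%). These differences were not tested. The tested clock activators, repressors, nuclear receptor genes, PAR bZIP genes and Nfil3 numbered 15. In AL liver 7 of them were higher and 3 lower in mice 25-40 without overlap, beside 5.52% of all genes apart. The other 5 overlapped, Per2, Cry1 and Hlf among them. In IF liver 3 were higher and 4 lower without overlap, beside 11.5% of all genes apart, and 8 overlapped. Arntl, Dbp and Per3 were among those apart in IF liver. In AL liver Arntl averaged 20.1 CPM in mice 1-16 and 1.16 CPM in mice 25-40, Dbp 8.88 and 236 CPM, Per3 6.28 and 117 CPM, and Per1 5.59 and 71.9 CPM. Over the 2 sets, Usp2 in IF liver of mice 1-16 (mean 89.8 CPM) lay above Usp2 in AL liver of mice 25-40 (mean 55.7 CPM), while Noct in IF liver of mice 1-16 (56.4 CPM) lay below its AL level in mice 25-40 (275 CPM).

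The library left out, AL cortex of mouse 1, lay inside the range of AL cortex of mice 25-40 for 5 of the 6 genes, Bhlhe40 at 104 CPM, Bhlhe41 at 39.95 CPM, Wee1 at 15.3 CPM, Noct at 41.5 CPM and Ciart at 37.6 CPM. Usp2 was at 112 CPM, above both AL ranges. All 6 values also lay inside the range of IF cortex of mice 25-40.

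The 12 groups were ranked for each gene by mean CPM, which scales by library totals. Usp2 was highest in muscle, where 3 groups from 171 to 206 CPM lay within 1 SD of their neighbours, and lowest in AL liver of mice 1-16 at 2.70 ± 0.89 CPM (SD, n = 8), beyond the SD from the next group. Ciart was highest in liver of mice 25-40, at 70.6 ± 19.6 CPM in IF and 54.1 ± 32.7 CPM in AL, followed by 7 groups between 12.4 and 32.9 CPM that ran into each other, and lowest in muscle of mice 1-16 under both diets and in their AL liver, with 3 groups between 1.54 and 2.29 CPM that did not differ beyond their spread. Bhlhe40 was highest in muscle of mice 25-40 and in cortex, in 6 groups between 97.5 and 139 CPM. These ran into each other and into AL liver of mice 25-40 at 96.96 CPM, with no break down to IF muscle of mice 1-16 at 47.9 CPM. Between AL liver and AL cortex of mice 25-40 the log2 difference was 0.59 by TMM and -0.01 by totals.

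Bhlhe41 was highest in muscle, at 47.1 to 55.6 CPM, then in cortex, at 29.6 to 41.7 CPM, the band of 1 SD around each of these means overlapping that of the next among the 8 groups, and lowest in liver, at 1.02 to 8.55 CPM. Wee1 was highest in cortex, where all 4 groups between 14.01 and 15.5 CPM lay within their spread, followed by 3 liver groups between 9.36 and 10.4 CPM. In AL mice 25-40 liver differed from cortex by -0.73 on the log2 scale by totals, and by -0.13 by TMM. Wee1 was lowest in the 4 muscle groups, at 1.63 to 4.28 CPM, and in AL liver of mice 1-16 (1.31 ± 0.58 CPM). Noct stood highest in liver of mice 25-40, at 275 ± 114 CPM in AL and 210.1 ± 111 CPM in IF, then in cortex with IF liver of mice 1-16 among its groups, next in AL liver of mice 1-16 at 27.6 CPM, and lowest in muscle, where 4 groups ran from 11.5 to 21.4 CPM.

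Per gene length, in counts per kilobase scaled to an equal sum in each library as in TPM, Bhlhe40 was the most abundant of the 6 in AL liver of mice 1-16 (8.37 ± 5.55, SD, n = 8), within 1 SD of Noct (4.56 ± 1.06). Noct led in AL liver of mice 25-40 (49.4 ± 19.8), within 1 SD of Ciart (45.7 ± 27.2). Usp2 led in AL muscle, at 48.3 ± 5.10 in mice 1-16, beyond the SD from Bhlhe40 (28.9 ± 6.32), and at 80.6 ± 12.7 in mice 25-40, with overlapping SD bands for Bhlhe40 (67.0 ± 9.19). Bhlhe40 led in AL cortex, at 70.6 ± 27.7 in mice 1-16 (n = 7) and 61.3 ± 12.2 in mice 25-40, each within 1 SD of Usp2 (45.6 ± 4.47 and 54.8 ± 5.35). Wee1 ranked last in AL muscle of both sets, Bhlhe41 last in AL liver of both.

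Tissue levels of the 6 genes in AL mice are given as a description in both sets, with no test. Liver had the lowest levels of most of the 6 genes in mice 1-16, and Noct was higher in liver than in muscle in both sets. In these comparisons most genes of any kind passed. TMM scaling, which assumes that most genes are level between libraries, moved the log2 fold changes of all genes by a median of 0.78 (mice 1-16) and 0.60 (mice 25-40) upward in liver against cortex, relative to scaling by library totals. The shift was 1.003 and 0.87 in muscle against cortex, and -0.22 and -0.27 in liver against muscle. The share of passing genes that were higher fell with it, from 44.6% by TMM to 29.4% by totals in liver against cortex and from 42.6% to 22.4% in muscle against cortex of mice 1-16, and from 43.8% to 31.6% and 43.6% to 24.3% in mice 25-40.

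Liver against muscle in mice 1-16, Noct was higher and the other 5 genes were lower in liver by log2 fold change, where 77.9% of 21608 genes passed. Usp2 had a log2 fold change of -5.52 ± 0.14 and Bhlhe41 of -5.95 ± 0.17, each lower in 8 of 8 livers than the muscle median. Ciart was at -0.80 ± 0.33 (5 of 8 livers below) and Wee1 at -0.55 ± 0.22 (7 of 8 below), or at -0.57 and -0.32 by library totals. In mice 25-40, where 78.5% of 21292 genes passed, Usp2, Bhlhe40 and Bhlhe41 were lower and Ciart, Wee1 and Noct higher in liver. Ciart then had a log2 fold change of 1.65 ± 0.26 (8 of 8 above) and Noct of 4.12 ± 0.26 (8 of 8 above). Ciart and Wee1 thus lay on opposite sides in the 2 sets, a difference between the sets that was not tested.

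Liver against cortex in mice 1-16, 5 of 6 genes were lower in liver (83.1% of all genes passed), from -1.55 ± 0.20 for Bhlhe40 to -4.03 ± 0.17 for Bhlhe41, each in 8 of 8 livers. Noct had a log2 fold change of -0.26 ± 0.17 by TMM and -1.06 by library totals. In mice 25-40, where 83.9% of all genes passed, Noct was at 3.28 ± 0.25 (8 of 8 livers above the cortex median). Ciart was at 1.38 ± 0.25 (5 of 8 above) and Bhlhe41 at -1.53 ± 0.15 (8 of 8 below). Bhlhe40 was at 0.59 ± 0.14 by TMM (4 of 8 above) and at -0.01 by library totals, where its mean CPM was 96.96 in liver and 97.5 in cortex. Usp2 and Wee1 were at -0.08 and -0.13 by TMM, and at -0.68 and -0.73 by library totals.

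Muscle against cortex in mice 1-16, Usp2 (1.55 ± 0.12) and Bhlhe41 (1.92 ± 0.14) were higher in muscle in 8 of 8 libraries, and Ciart, Wee1 and Noct were lower, where 78.9% of all genes passed. Bhlhe40 had a log2 fold change of 0.20 ± 0.20 by TMM and of -0.81 by library totals, and 8 of 8 muscle libraries lay below the cortex median in CPM. In mice 25-40, where 79.5% of all genes passed, Usp2, Bhlhe40 and Bhlhe41 were higher and Wee1 and Noct lower in muscle. Bhlhe40 was at 1.39 ± 0.15 (8 of 8 above). Ciart was at -0.27 by TMM and -1.14 by library totals.

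Mouse-to-mouse differences within groups are given as a description, with no test, by Pearson's r after centring each group on its mean log2 CPM, over all 32 mice (31 in cortex) and over the 16 mice 25-40 among them. The genes of a pair were read from the same libraries. In liver Usp2 and Ciart had the highest r of 15 pairs over all mice (0.482, rho = 0.544; 0.817 in mice 25-40). In muscle Ciart and Wee1 (0.628, rho = 0.577; 0.648 in mice 25-40) and Usp2 and Noct (0.605, rho = 0.589; 0.645 in mice 25-40) had the highest values over all mice, while Usp2 and Ciart had 0.325 over all mice and 0.866 in mice 25-40. In cortex Bhlhe40 and Wee1 came first (0.686, rho = 0.638, and 0.526 in mice 25-40, or 0.220 there without the 2 farthest mice). Next were Ciart and Bhlhe41 (0.597, rho = 0.546, and 0.444 in mice 25-40) and the relatives Bhlhe40 and Bhlhe41 (0.594, rho = 0.578, and 0.793 in mice 25-40). The medians over the 15 pairs of a tissue were 0.0344 in liver, 0.230 in muscle and 0.225 in cortex over all mice.

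Across tissues of the same mouse number, Usp2 in liver and muscle had the highest r of 18 relations over all mice (0.476, rho = 0.457, and 0.752 in mice 25-40). Mouse numbers come from the library names, and that libraries sharing a number came from the same mouse was not established. Ciart differed most between the 2 selections of mice, at 0.025 over all mice and 0.767 in mice 25-40 between muscle and cortex, and at 0.0186 and 0.711 between liver and muscle. Without the 2 farthest mice its values over all mice were 0.311 between muscle and cortex and 0.0895 between liver and muscle.

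Over all 95 libraries, centred within each tissue and set so that diet and mouse differences both enter, the genes most like each of the 6 were sought among 12655 genes by Pearson's r, as a description. Usp2 was nearest to Nampt (r = 0.917), which makes the NAD-synthesis enzyme, then to Gde1 (0.900) and Fbxo31 (0.899). Wee1 was nearest to Usp2 (0.869), Per1 (0.852) and Ttc3 (0.830), and Ciart to Usp2 (0.836), Gde1 (0.817) and Per1 (0.804). Bhlhe40 was nearest to Tatdn2 (0.722), Pi4ka (0.696) and Tmem127 (0.694), and Bhlhe41 to Rab5if (0.668), Oplah (0.652) and Rnf19b (0.635). Noct had the weakest neighbours, Sf3b1 (0.596), Sorbs3 (0.591) and Zfp612 (0.585). Among themselves the 6 genes ranged from 0.053 between Bhlhe40 and Noct to 0.869 between Usp2 and Wee1, and Noct did not exceed 0.390 with any of the other 5.

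Promoter windows of 300 bases from RefSeq (build GRCm38.p6) were matched by symbol for 4 of the 6 genes, Usp2, Ciart, Bhlhe41 and Noct; Bhlhe40 and Wee1 are named only. They were searched on both strands for the E-box letters CACGTG and the related CACGTT, for the D-box forms TTATGTAA, TTATGCAA and TTACGTAA, for the receptor forms TAGGTCA and TGGGTCA, and for TGACGTCA, the cAMP response element. CACGTG occurred 3 times in the window of Ciart, at positions 135, 193 and 207, and once in that of Bhlhe41, at position 98. None of these letters was found in the windows of Usp2 and Noct. Of 32851 RefSeq promoter windows of this length, 7.15% held CACGTG and 0.0883% held it 3 or more times. The other motifs were held by 4.68%, 0.938%, 0.743%, 0.119%, 2.61%, 3.98% and 1.79% in the order named, and by none of the 4 windows. A match of letters is a description of the sequence and not a bound site. The windows of Ciart and Bhlhe41, the genes with a CACGTG match, are shown, and capitals mark CACGTG. Whether these letters go with the levels or diet differences of the genes was not tested. The first lies at chr3:95882179-95882478 on the minus strand and the second at chr6:145865371-145865670 on the minus strand.
Ciart: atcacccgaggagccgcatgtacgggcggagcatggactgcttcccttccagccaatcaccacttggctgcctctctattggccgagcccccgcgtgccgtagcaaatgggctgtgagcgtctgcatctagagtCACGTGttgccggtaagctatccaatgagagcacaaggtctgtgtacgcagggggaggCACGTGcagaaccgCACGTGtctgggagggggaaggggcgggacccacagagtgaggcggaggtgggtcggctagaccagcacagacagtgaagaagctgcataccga
Bhlhe41: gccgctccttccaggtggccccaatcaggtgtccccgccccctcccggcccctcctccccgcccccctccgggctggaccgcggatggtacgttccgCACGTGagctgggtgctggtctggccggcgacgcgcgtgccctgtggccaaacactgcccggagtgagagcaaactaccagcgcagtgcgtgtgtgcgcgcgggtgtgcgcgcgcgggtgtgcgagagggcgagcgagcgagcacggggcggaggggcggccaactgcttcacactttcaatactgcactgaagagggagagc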

How the data were processed

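Polyadenylated RNA was sequenced by the authors from directional (dUTP) libraries and aligned with HISAT2 to mm39, and the deposited table gives counts per gene, whose strand setting and handling of shared reads are not stated. The 6 genes and the gene lists were chosen with earlier results of these data known. CPM were computed from counts and library totals. Tests were edgeR 4.0.16 (R 4.3.3) quasi-likelihood tests with TMM, filterByExpr (minimum count 10, total 15) and robust fitting, with Benjamini-Hochberg adjustment over all genes and a threshold of 0.05. Diets were fitted per tissue and set, and tissues and interactions in 1 fit of 6 groups per set. The SE was the log2 fold change divided by the square root of F. Correlations used log2 CPM with a prior count of 2. Permutation tests of them and tests of the 6 genes were run and are not given, since the rule read these levels. Counts of how the fold changes moved under alternatives are given. Python 3.11.15, numpy 2.4.6, scipy 1.17.1, pandas 2.3.3 and matplotlib 3.10.9 did the rest. Genes named were the 6, genes of the clock lists, up to 2 genes with the largest fold change among those passing in each other list, and 3 nearest genes for each of the 6. Results for some list and marker genes were left out of the report. Alternatives were RLE size factors, DESeq2 1.42.0, other filters, replicate blocks, other fits, a prior count of 0.5 and library totals.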

Additional observations from a re-analysis of the deposited data

Results flagged for a closer look

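AL mouse 2 of mice 1-16 stood far from its group for Bhlhe40 in liver, at 53.7 CPM, while the other 7 AL livers lay between 13.6 and 24.4 CPM. Of the 72 groups examined for a sample that stands apart this was the 1 marked. That is below the share of 0.05 that chance alone is expected to mark, so the mark is a description only.

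Bhlhe41 in liver lay on opposite sides of the AL median in the 2 sets of mice. In mice 1-16 all 8 IF mice lay above the AL median, with a log2 fold change of 1.54. In mice 25-40 all 8 IF mice lay below it, with a log2 fold change of -0.76. The choice of genes read the levels of both sets, so these values are a description, with no test. The difference between the sets was not tested, and sex, animal set and handling cannot be told apart.

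The library left out, AL cortex of mouse 1, held 213 CPM of Xist, while the other libraries labelled male held at most 0.612 CPM.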

How the results depend on the processing

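Over the alternatives run, 436 log2 fold changes of the 6 genes kept their direction and their side of the threshold or moved by less than their spread, 11 newly passed and 4 no longer passed with their sign kept, 1 moved and 3 reversed, and 125 of 126 correlations over both sets kept their direction. Of the 11, 6 came from the unadjusted p, which only loosens the threshold. The report gives the fold changes of the 6 genes with no test in both sets, as it does the correlations.

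Scaling by library totals was added after the data were seen. By it Bhlhe40 between muscle and cortex of AL mice 1-16 reversed to -0.81, and between liver and cortex of AL mice 25-40 to -0.008209. With at least 10 counts in every library, the interaction of Wee1 between liver and muscle reversed to 0.00122, and with a prior count of 0.5 the correlation of Ciart between liver and muscle over both sets reversed to -0.0008854. The cause was not tested.

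Counts of passing genes moved as follows. In 1 fit over 6 groups they were 2195 in muscle and 119 in cortex of mice 1-16, and 283, 4 and 5 in liver, muscle and cortex of mice 25-40. At an unadjusted p they were 5309 in muscle and 4400 in cortex of mice 1-16, and 919, 1644 and 2069 in mice 25-40. DESeq2 gave 2187 in cortex of mice 1-16, and 4, 82 and 61 in mice 25-40. With genes of at least 1 count, 5 passed in muscle of mice 25-40. The cause was not tested.

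With the replicate block, 382 genes passed in cortex of mice 1-16 and 0 in cortex of mice 25-40, and with mouse number as a replicate block 1 passed in the interaction between liver and muscle and 0 between liver and cortex by edgeR, against 13 and 12 without the block. Replicate numbers of AL and IF libraries had a median r between -0.10 and 0.075, so the numbers do not pair the samples. Libraries of the same mouse number in different tissues also had a low median r, between 0.0198 and 0.0419.

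Cortex of mice 1-16 gave 498 without AL mouse 2 and IF mouse 10, which left 6 AL and 7 IF libraries, and 294 with the AL library of mouse 1, which moved Ciart to a log2 fold change of 0.63. The interactions gave 4 and 2 with at least 10 counts in every library, and 28 between liver and cortex with RLE. The cause was not tested.

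Sex, set and handling cannot be told apart. Collection times of mice 25-40 are unknown and tissues of mice 1-16 were taken within 1 span of hours, so no rhythm was measured. No hour is given for any single mouse, so a difference in hour between AL and IF mice cannot be told apart from diet. Groups held 8 mice, or 7 in AL cortex of mice 1-16. At the lowest levels, such as Ciart in AL liver with 2 counts in a library, counting error limits precision. Reads shared with overlapping genes could not be separated.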
